A study of Mus musculus with 8 samples.

Results

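Gata3, the T helper 2 (Th2) transcription factor, the receptors Il1rl1, Il4ra, Il17rb and Ptgdr2, and the cytokines Il5 and Il13 were followed in CD4+ T cells from tumour-free and tumour-bearing mice. The members were all non-control probes whose gene name on the array was one of these 7 symbols, which gave 13 probes of 56587. Of these, 9 probes of 6 genes were detected (well above background) on each of the 2 arrays of some group and could be tested. The data were single-colour Agilent arrays, 1 per sample, in 4 groups of 2 samples.

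All hosts were C57BL/6 mice that received T cells with a transgenic receptor for ovalbumin (OVA) and then dendritic cells loaded with OVA peptide. The tumour-bearing hosts carried MCA205-OVA, a fibrosarcoma line made to express OVA, and the tumour-free hosts carried none. With each kind of host, 1 group was given a control antibody and the other anti-IL-6R, an antibody to the receptor of IL-6. CD4+ T cells were isolated on day 4 after the immunisation, and 0.1 µg of RNA was labelled per sample. With control antibody, replicates 1 and 2 came from tumour-free hosts and replicates 3 and 4 from tumour-bearing hosts. With anti-IL-6R, replicates 5 and 6 came from tumour-free hosts and replicates 7 and 8 from tumour-bearing hosts. The design text gives 2 independent experiments per condition, while the number of mice behind a sample, the share of transferred cells and the purity of the isolates were not found in the labels. If replicates share mice or cultures, the p-values measure only the spread between these samples. The study asked how IL-6 limits Th1 responses in tumour-bearing mice, and Th2 is an alternative fate of helper T cells. Which cells of the isolates gave the Th2 gene signals was not measured.

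Th2 cells are helper T cells that make IL-4, IL-5 and IL-13 and act in allergy and in defence against worms. IL-4 binds Il4ra, which activates Stat6, and Gata3 is then raised and opens the Th2 cytokine genes. Il1rl1 (ST2) is the receptor chain for IL-33, Il17rb the chain that binds IL-25, and Ptgdr2 (CRTH2) the receptor for prostaglandin D2 on Th2 cells. These receptors are also found on type 2 innate lymphoid cells, basophils, mast cells and eosinophils, and Gata3 and Il1rl1 on regulatory T cells of tissues.

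Every signal below is the log2 of the processed signal minus the 75th percentile of that array, so 0 marks a probe as bright as the 75th percentile. A difference is a difference of such values, and 1 unit is a doubling of signal. Calls are limma tests with Benjamini-Hochberg adjustment over 32039 probes at 0.05. On each array 53.1% to 59.8% of probes were well above background. Over the 32039 tested probes, replicates of a group correlated at r = 0.992 to 0.993, and arrays of different groups at 0.978 to 0.992. The arrays shared 1 slide and 1 scan. Control antibody filled slide column 1 and anti-IL-6R column 2, with tumour-free samples in rows 1 and 2 and tumour-bearing samples in rows 3 and 4, so slide position and group cannot be told apart. In bulk RNA, more cells of a type and more RNA per cell cannot be told apart either.

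Il1rl1 was the member with the largest called differences, and the 3 probes for it lie in different parts of the gene. The first 30 of the 60 probe bases are shown for these and for the Gata3 probe, since it is these letters that the values measure. On mouse build mm9, A_51_P339793 lies at chr1:40504769-40504828 and was designed on transcript NM_010743, the shorter form that encodes the soluble receptor. A_55_P2027731 at chr1:40520014-40520073 and A_55_P2027737 at chr1:40522187-40522246 were designed on NM_001025602, the longer form that encodes the membrane receptor. All 3 are on the plus strand. The Gata3 probe A_55_P2736969 lies at chr2:9779495-9779554 on the minus strand and was designed on NM_008091.
Il1rl1 A_51_P339793: ctctgtaacaggatcttttgtctagatttc
Il1rl1 A_55_P2027731: ccttacccaaattgccattacagtcgagca
Il1rl1 A_55_P2027737: gccattgactccttgtgtgttttcttcatg
Gata3 A_55_P2736969: tgtccaaatgggcacactgtcagttttgtt

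The RefSeq promoter table (GRCm38.p6) held a start for each of the 7 genes and 2 starts for Il1rl1. The 250 bases before each start were searched on both strands for the letters bound by GATA factors (AGATAA as well as the variants spelled AGATAG, then TGATAA, and lastly TGATAG) and for a STAT site (TTCNNNNGAA). Both Il1rl1 windows are shown because the gene has an upstream and a downstream promoter and they differed in these matches. The upstream window lies at chr1:40429320-40429569 and the downstream window at chr1:40439379-40439628, both on the plus strand, with matches in capitals (a match on the other strand reads in reverse complement, as CTATCT does).
Il1rl1 upstream start: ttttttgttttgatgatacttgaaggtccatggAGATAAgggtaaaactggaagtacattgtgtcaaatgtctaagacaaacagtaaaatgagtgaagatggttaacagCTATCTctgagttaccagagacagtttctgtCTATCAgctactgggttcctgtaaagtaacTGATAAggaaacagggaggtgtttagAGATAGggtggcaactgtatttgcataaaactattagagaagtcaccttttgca
Il1rl1 downstream start: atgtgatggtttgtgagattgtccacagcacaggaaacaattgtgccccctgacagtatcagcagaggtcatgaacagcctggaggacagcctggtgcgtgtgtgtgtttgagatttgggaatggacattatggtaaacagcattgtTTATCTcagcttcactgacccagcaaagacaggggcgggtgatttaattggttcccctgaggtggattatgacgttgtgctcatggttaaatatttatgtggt

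The upstream window held 5 GATA matches, at 217, 141, 110, 80 and 54 bases before the start, none overlapping another. Of 32851 promoter windows of this length, 26.5% held at least 1 match and 14 (0.0426%) held 5 or more. The cut of 5 was taken from this window, the fullest of the 8 searched, so the share is a description and not a test. The downstream window held 1 match, 103 bases before the start. The windows of Il5 and Il13 held 1 match each, and those of Gata3, Il4ra, Il17rb and Ptgdr2 held none. The STAT letters were in none of the 8 windows and in 5.85% of all windows. These counts describe letters, and binding was not measured.

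**Figure D1:**
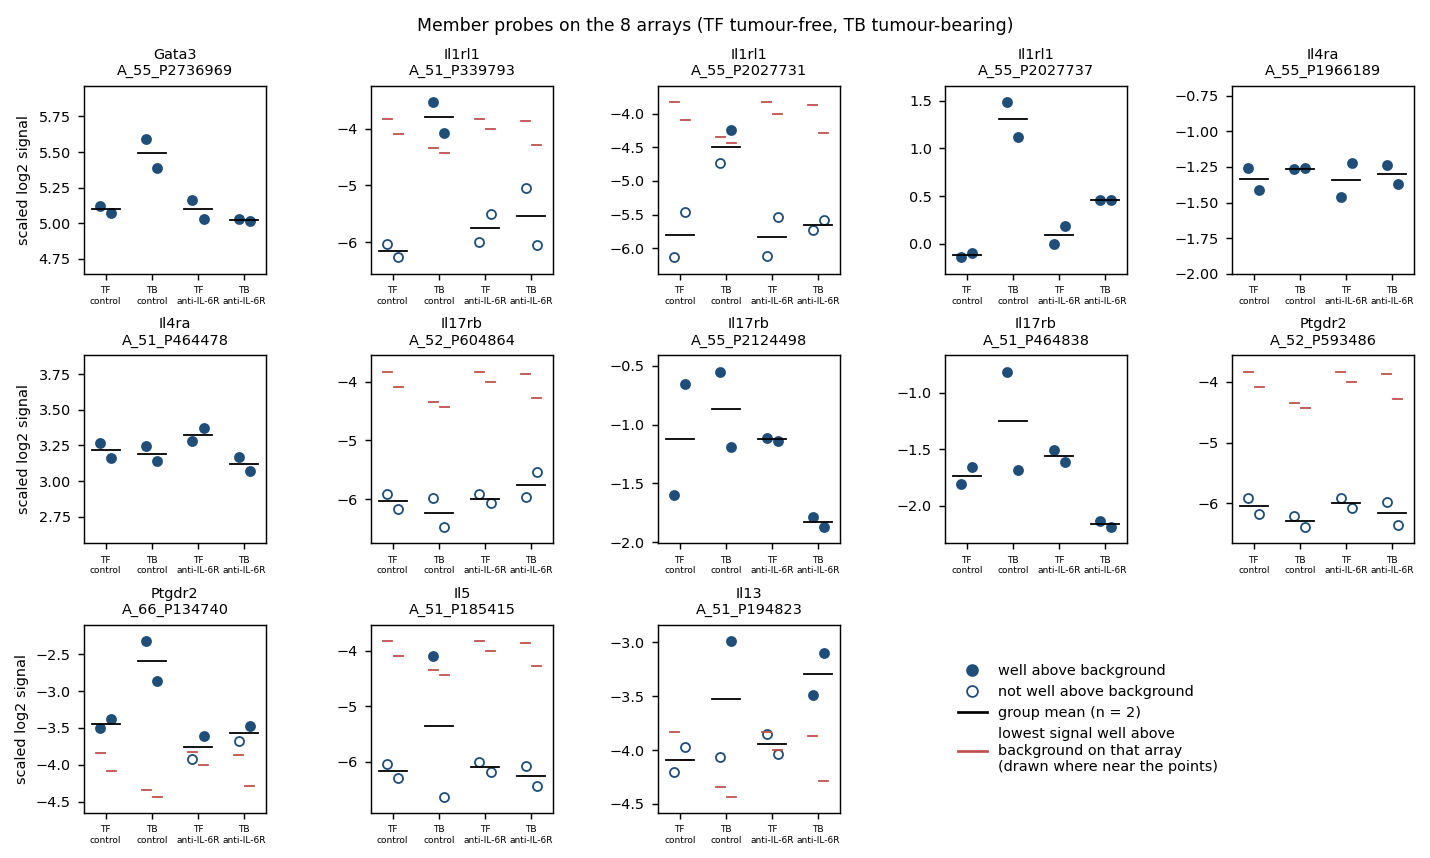
Each panel is 1 member probe, with the scaled log2 signal on the y axis and the 4 groups of 2 arrays on the x axis. Filled points were well above background, open points were not, black bars are group means, and red ticks mark the lowest signal well above background on that array where it lies near the points. Gata3 and Il1rl1 A_55_P2027737 were highest in replicates 3 and 4, the tumour-bearing samples with control antibody, while both Il4ra probes stayed within a narrow band.

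In mice given the control antibody, Il1rl1 and Gata3 were higher in T cells of tumour-bearing than of tumour-free hosts. Il1rl1 rose 2.68-fold on A_55_P2027737, and Gata3 rose 1.31-fold. Of the 6 member probes well above background on all 8 arrays, 2 passed the test, both upward, against 5.27% of the 28102 probes so detected. This restriction was chosen after the data were seen. Il4ra and Il17rb have 2 of these 6 probes each, so the 6 are not independent of each other. Of all 9 tested member probes 3 passed, against 5.25% of all tested probes (1681 of 32039) in either direction and 3.36% upward, but the third, for the soluble form of Il1rl1, was tested only because it was detected in the group where it is high, and adds no support. Il4ra, Il17rb, Ptgdr2 and Il13 did not pass. At an unadjusted p under 0.05 there were 2 of the 6, against 24.5% of probes detected on all arrays. The count over all probes fell to 427 without replicate 2, 616 without replicate 3 and 997 without replicate 4.

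Among the receptors, Il1rl1 A_55_P2027737 had a signal of -0.14 and -0.09 in replicates 1 and 2, the tumour-free samples with control antibody. It stood at 1.49 and 1.12 in replicates 3 and 4, at -0.00071 and 0.19 in replicates 5 and 6, and at 0.46 and 0.46 in replicates 7 and 8. Both tumour-bearing samples with control antibody lay above the other 6, both tumour-bearing samples with anti-IL-6R came next, and no tumour-free sample reached either pair. The tumour difference with control antibody was 1.42 ± 0.13 (SE, n = 2 per group; limma adjusted p = 0.00165). It stayed called when any 1 of the 8 arrays was left out, between 1.24 and 1.60.

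The probe for the soluble form of Il1rl1, A_51_P339793, was well above background on replicates 3 and 4 alone, at -3.53 and -4.07. Its values on the other 6 arrays, from -6.27 to -5.04, are not well above background, and those of replicates 1, 2 and 5 are surrogates set by the scanner software. In control-antibody mice, the tumour-bearing mean was 1.12-fold above the mean of the lowest detectable signals on the tumour-free arrays. That ratio leaves out the spread between arrays, and replicate 4 lay below the lowest detectable signal on replicate 1 (-3.83). The fitted difference was 2.35 ± 0.54 (limma adjusted p = 0.0478) and 0.59 under normexp background correction, so its size is not known. The probe passed the detection filter only through this group, so its p is a description and not support, and it was under 0.05 only when replicate 5, 7 or 8 was left out (0.0380 to 0.248 over the 8 omissions). The remaining probe, A_55_P2027731, was well above background only on replicate 4, at -4.25, and was not tested. It read -4.73 on replicate 3 and between -6.13 and -5.46 on the other 6 arrays. A_55_P2027731 and A_55_P2027737 were both designed on the longer form but differed widely in level. With control antibody their means were -5.80 and -0.12 in tumour-free samples, and -4.49 and 1.30 in tumour-bearing samples. The Il1rl1 calls that held under omission thus rest on A_55_P2027737 alone, and the cause of the gap was not tested.

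Gata3, the factor that directs the Th2 programme, had a signal of 5.12 and 5.07 in replicates 1 and 2. It reached 5.60 and 5.39 in replicates 3 and 4, against 5.16 and 5.03 in replicates 5 and 6 and 5.03 and 5.02 in replicates 7 and 8. Only the tumour-bearing samples with control antibody stood above the rest, and the other 6 arrays ran from 5.02 to 5.16. The tumour difference with control antibody was 0.39 ± 0.087 (limma adjusted p = 0.0420). That call held without replicate 4 and was lost without any other single array (adjusted p 0.0380 to 0.196, difference 0.29 to 0.50).

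Ptgdr2 A_66_P134740 read -3.50 and -3.38 in replicates 1 and 2, and -2.32 and -2.87 in replicates 3 and 4. With anti-IL-6R it read -3.92 and -3.61 in replicates 5 and 6 and -3.68 and -3.47 in replicates 7 and 8, of which replicates 5 and 7 were not well above background. Both tumour-bearing samples with control antibody lay above every other array. The difference of 0.85 ± 0.26 did not pass (limma adjusted p = 0.0977) and was 0.40 under normexp, 0.58 without replicate 3 and 1.12 without replicate 4. The other Ptgdr2 probe, A_52_P593486, was not well above background on any array.

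Il17rb, the IL-25 receptor chain, had 2 usable probes. A_51_P464838 read -1.81 and -1.65 in replicates 1 and 2, -0.81 and -1.68 in replicates 3 and 4, -1.51 and -1.61 in replicates 5 and 6, and -2.13 and -2.19 in replicates 7 and 8. Within the tumour-bearing control pair only replicate 3 was high, while replicate 4 lay among the tumour-free values. The tumour difference of 0.48 ± 0.25 did not pass (limma adjusted p = 0.284), and it ranged from 0.048 without replicate 3 (adjusted p = 0.919) to 0.92 without replicate 4 (adjusted p = 0.0322). A_55_P2124498 read -1.60 and -0.65 in replicates 1 and 2 and -0.55 and -1.19 in replicates 3 and 4, so the groups overlapped (difference 0.25 ± 0.30, limma adjusted p = 0.674). The third probe, A_52_P604864, was not well above background on any array.

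Il4ra, the chain that binds IL-4 and pairs with Il13ra1 in the IL-13 receptor, was even across the arrays. A_51_P464478 ran from 3.07 to 3.37 over the 8 arrays, and A_55_P1966189 from -1.46 to -1.22. The tumour difference with control antibody was -0.02 ± 0.081 on the first probe (95% interval -0.21 to 0.16) and 0.07 ± 0.13 on the second (-0.23 to 0.38). Neither passed (limma adjusted p = 0.898 and 0.795).

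The cytokines were at the edge of detection. Il13 was well above background on replicate 4 at -2.99 and on replicates 7 and 8 at -3.49 and -3.10, and the other 5 arrays read -4.21 to -3.85. The tumour difference with control antibody was 0.56 ± 0.37 (limma adjusted p = 0.406), and the tumour-bearing pair was measured on 1 of 2 arrays. It was 0.027 without replicate 4 and 1.099 without replicate 3. Il5 was well above background on replicate 3 alone, at -4.10. The other 7 arrays read -6.62 to -6.01, and the probe was not tested.

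**Figure D2:**
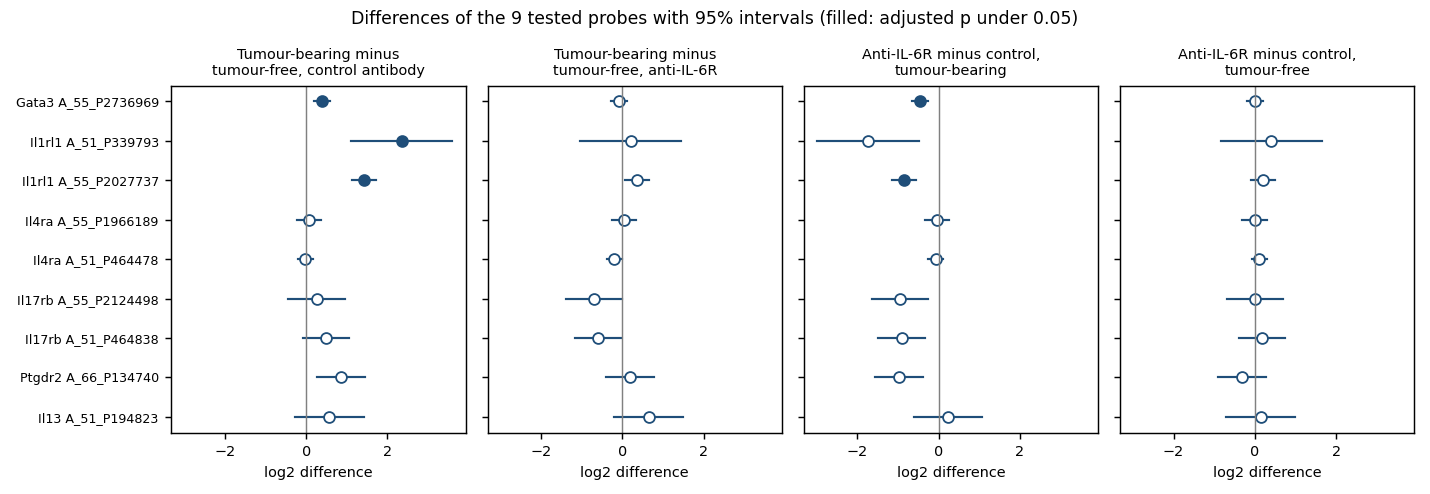
Points are log2 differences of the 9 tested member probes with 95% intervals, in 4 comparisons (n = 2 per group). Filled points passed an adjusted p of 0.05: Gata3 and both Il1rl1 probes for the tumour effect with control antibody (A_51_P339793 was detected on replicates 3 and 4 alone, so its sizes are not exact), and Gata3 and Il1rl1 A_55_P2027737 for the antibody effect in tumour-bearing mice.

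In tumour-bearing mice, Il1rl1 and Gata3 were lower with anti-IL-6R than with the control antibody. Il1rl1 A_55_P2027737 fell by 0.84 on the log2 scale (SE 0.13, limma adjusted p = 0.0267), a 1.80-fold lower signal. Gata3 fell by 0.47 (SE 0.087, limma adjusted p = 0.0328), a 1.38-fold lower signal. Thus 2 of the 6 member probes detected on all arrays passed, both downward, against 4.42% of such probes. These were also the only 2 of all 9 tested, against 4.27% of all tested probes (1369 of 32039) in either direction and 2.76% downward. This comparison and the tumour comparison share replicates 3 and 4, so they are not independent of each other.

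Single arrays decided these calls. For Il1rl1 the call was lost without replicate 3 (-0.66, adjusted p = 0.0660) and without replicate 8 (-0.85, adjusted p = 0.150). For Gata3 it was lost without replicate 3 (-0.36, adjusted p = 0.115), replicate 7 (-0.47, 0.0568) and replicate 8 (-0.46, 0.182). The count over all tested probes moved as well, to 204 without replicate 3 and 24 without replicate 8. The values of both genes in replicates 7 and 8 lay below those in replicates 3 and 4 without overlap.

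Ptgdr2 and both Il17rb probes were lower in both tumour-bearing samples with anti-IL-6R than in both with control antibody but did not pass, and the Il4ra values overlapped. Ptgdr2 differed by -0.98 ± 0.26 (limma adjusted p = 0.0642), by -0.45 under normexp and by -1.15 under quantile normalization, where it passed (adjusted p = 0.0448). Il17rb differed by -0.91 ± 0.25 on A_51_P464838 (adjusted p = 0.0684) and by -0.96 ± 0.30 on A_55_P2124498 (adjusted p = 0.0921). The first Il17rb probe ranged from -0.48 without replicate 3 (adjusted p = 0.186) to -1.35 without replicate 4 (adjusted p = 0.0289). On A_55_P2124498 the tumour-bearing samples with anti-IL-6R read -1.79 and -1.87, below all other arrays. The soluble-form probe of Il1rl1 did not pass (fitted difference -1.74 ± 0.54, limma adjusted p = 0.0907, and -0.54 under normexp). It was not well above background on replicates 7 and 8. Its mean in tumour-bearing control samples was 1.21-fold above the mean of the lowest detectable signals on those 2 arrays. Replicate 4, at -4.07, lay below the lowest detectable signal on replicate 7 (-3.87), so no minimum fall is shown. Il4ra differed by -0.07 ± 0.081 (95% interval -0.26 to 0.11) on A_51_P464478 and by -0.04 ± 0.13 (-0.34 to 0.26) on A_55_P1966189. Il13 differed by 0.23 ± 0.37 (adjusted p = 0.730), and by -0.31 without replicate 3 and 0.77 without replicate 4. At an unadjusted p under 0.05, 4 of the 6 probes detected on all arrays passed, against 28.0% of all such probes.

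In tumour-free mice no member probe passed for anti-IL-6R, by limma, at the adjusted or the unadjusted threshold of 0.05. Over all probes 0.0312% (10 of 32039) passed with adjustment and 8.00% without, and 0.0142% of those detected on all arrays passed with adjustment. Il1rl1 A_55_P2027737 differed by 0.21 ± 0.13 (95% interval -0.086 to 0.50), and Gata3 by 0.00068 ± 0.087 (-0.20 to 0.20). Ptgdr2 differed by -0.32 ± 0.26, and Il17rb by 0.17 ± 0.25 and -0.0014 ± 0.30 on its 2 probes.

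With anti-IL-6R in both kinds of host, no member probe passed for the tumour, against 0.209% (67 of 32039) of all probes and 0.181% of those detected on all arrays. At an unadjusted p under 0.05 there were 4 of the 6 probes detected on all arrays, against 6.81% of all such probes by limma. Il1rl1 A_55_P2027737 was 0.37 ± 0.13 higher in tumour-bearing samples (unadjusted p = 0.0205 by limma, adjusted p = 0.590), with both values above both tumour-free values. The other 3 were in the opposite direction, Il4ra A_51_P464478 at -0.21 ± 0.081 and Il17rb at -0.60 ± 0.25 and -0.70 ± 0.30. Both Il17rb probes measure 1 gene and correlated at r = 0.862, so they count as 1 observation. Gata3 differed by -0.08 ± 0.087 (95% interval -0.27 to 0.12). Il13 differed by 0.65 ± 0.37 (95% interval -0.198 to 1.499, limma adjusted p = 0.590), so a lack of change is not excluded. Both tumour-bearing samples were well above background and neither tumour-free sample was. The probe passed the detection filter only through this tumour-bearing group, so its detection there adds no support. The tumour-bearing mean was 1.54-fold above the mean of the lowest detectable signals on the tumour-free arrays. That ratio leaves out the spread between arrays.

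Whether anti-IL-6R acted differently in the 2 kinds of host was tested as the difference between its effects. No member probe passed by limma, against 0.025% (8 of 32039) of all probes and 0.0107% of those detected on all arrays. Of the 6 member probes detected on all arrays 3 had an unadjusted p under 0.05, against 24.4% of all such probes. The difference was -1.05 ± 0.18 for Il1rl1 A_55_P2027737 (adjusted p = 0.0807), -0.47 ± 0.12 for Gata3 (0.104) and -1.08 ± 0.35 for Il17rb A_51_P464838 (0.130). For the soluble-form probe of Il1rl1 no size is given, since it was not detected in 3 of the 4 groups. A fall in tumour-bearing mice that differs from the tumour-free result is therefore not shown for any member.

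The order of group means, per probe, was tumour-bearing control, tumour-bearing anti-IL-6R, tumour-free anti-IL-6R and tumour-free control for Il1rl1 A_55_P2027737 (1.30, 0.46, 0.09 and -0.12). For Gata3 the means were 5.49 in tumour-bearing control samples, then 5.10 in both tumour-free groups and 5.02 in tumour-bearing samples with anti-IL-6R. The tumour-free groups overlapped, both tumour-bearing samples with anti-IL-6R lay below every tumour-free sample, and the difference between that group and the tumour-free control group was not tested. For Il17rb A_51_P464838 the tumour-bearing group with anti-IL-6R was lowest, at -2.16 ± 0.038 (SD, n = 2), and the tumour-bearing control group highest, at -1.25 ± 0.62.

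The genes whose signals ran most like each member over the 8 arrays were ranked by Pearson's r, among probes detected on all arrays with an SD of at least 0.2. Gata3 ran most like Prc1 (r = 0.993), a microtubule bundler of cytokinesis, Lgals1 (0.989), a galectin, and Aurkb (0.988), a mitotic kinase. Il1rl1 A_55_P2027737 ran most like Pdzk1ip1 (0.996), Tiam1 (0.988), a Rac activator, and Ccr2 (0.986), a chemokine receptor. Il4ra A_51_P464478, with an SD of 0.095 over the arrays, ran most like Prx (0.976), Adgra3 (0.959) and Aak1 (0.946), and Il17rb A_55_P2124498 like Ipo8 (0.972), Aph1a (0.969) and Soat2 (0.914). Between member probes detected on all arrays, r was highest for the 2 Il17rb probes (0.862). Next came Gata3 with Il1rl1 (0.820) and Gata3 with Il17rb A_51_P464838 (0.814). Every other pair lay between -0.244 (Il1rl1 with Il4ra A_51_P464478) and 0.592 (Gata3 with Il17rb A_55_P2124498). The 2 Il4ra probes had an r of 0.254, and Gata3 with Il4ra A_51_P464478 had 0.044. The r values with other genes are the highest of 6476 to 6478 candidate probes each. All r values are over 8 shared arrays, and describe these arrays only.

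Genes that act with the members were counted by their brightest detected probe, from 6 lists. Among all 21518 genes, 5.99% passed for the tumour with control antibody (4.08% upward, 1.91% downward) and 5.14% for anti-IL-6R in tumour-bearing mice (1.77% upward, 3.37% downward). In IL-4 receptor signalling, 1 of 13 measured genes rose with the tumour and none fell, and with anti-IL-6R 1 rose and 1 fell. The list medians were 0.10 and -0.17, beside 0.03 and -0.05 over all genes. The gene that rose with the tumour was Il4, the cytokine that Il4ra binds. It read -0.96 and -1.42 in replicates 1 and 2, 1.49 and 1.12 in replicates 3 and 4, -0.86 and -0.87 in replicates 5 and 6, and -0.36 and -0.25 in replicates 7 and 8. Il4 thus rose by 2.50 ± 0.17 with the tumour (limma adjusted p = 0.00070) and fell by 1.61 with anti-IL-6R (SE 0.17, adjusted p = 0.0202). Il13ra1, the partner of Il4ra in the IL-13 receptor, rose by 0.85 ± 0.18 with anti-IL-6R (adjusted p = 0.0430). Stat6, the factor that IL-4 activates, differed by -0.10 ± 0.089 and 0.17 ± 0.089, and Il2rg, the shared gamma chain, by 0.09 ± 0.10 and -0.23 ± 0.10. Neither passed.

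Of 13 measured Th2 transcription regulators, 5 rose and 1 fell with the tumour, and 3 fell and 1 rose with anti-IL-6R (medians 0.25 and -0.29). Maf, which drives Il4 transcription, rose by 1.13 ± 0.093 (limma adjusted p = 0.0013) and fell by 0.72 with anti-IL-6R (adjusted p = 0.0261). Gfi1, a repressor that aids Th2 growth, rose by 0.47 ± 0.099 and fell by 0.76. Batf, an AP-1 factor of helper T cells, rose by 0.42 ± 0.090 and fell by 0.51. Nfil3 rose by 0.77 ± 0.14 and Rbpj, the DNA-binding partner of Notch, by 0.45 ± 0.082 with the tumour. Notch1, a receptor that can promote Gata3, ran the other way, falling by 1.06 with the tumour and rising by 0.59 ± 0.13 with anti-IL-6R. In tumour-free mice Notch1 differed by -0.89 with anti-IL-6R (adjusted p = 0.143).

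The list of opposing regulators held Th1 and follicular helper genes besides repressors of Gata3, so not every gene in it, Sh2d1a among them, opposes Gata3. Its called genes moved in the same directions as Gata3. Of 8 measured genes 3 rose and 0 fell with the tumour, and 0 rose and 3 fell with anti-IL-6R (medians 0.39 and -0.35). Zfpm1 (FOG-1), a repressor of Gata3 activity, rose by 0.36 ± 0.078 and fell by 0.46. Sh2d1a, the SAP adaptor that follicular helper cells need, rose by 0.53 ± 0.11 and fell by 0.66. Bcl6, the follicular helper factor, rose by 0.54 ± 0.093 with the tumour. Tbx21 (T-bet), the Th1 factor, read 2.17 and 2.19, 2.77 and 2.51, 2.40 and 2.17, and 2.17 and 1.93 in replicates 1 to 8, group by group. Its tumour difference was 0.46 ± 0.12 (limma adjusted p = 0.0721), and with anti-IL-6R in tumour-bearing mice it fell by 0.60 (SE 0.12, adjusted p = 0.0432).

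Of 11 measured partners of the IL-33, IL-25, TSLP and prostaglandin D2 receptors, 1 rose with the tumour and 1 rose with anti-IL-6R, and none fell. Crlf2, the TSLP receptor chain, rose by 0.35 ± 0.070 with the tumour, and Il7r, its partner chain, rose by 0.69 ± 0.094 with anti-IL-6R. Il1rap, the second chain of the IL-33 receptor, differed by 0.07 ± 0.10 and 0.04 ± 0.10, and Il17ra, the second chain of the IL-25 receptor, by -0.23 ± 0.094 and 0.14 ± 0.094. Neither partner passed.

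Of 10 measured Th2 effector and homing genes, 3 rose with the tumour and 2 fell with anti-IL-6R (medians 0.65 and -0.36). The medians include Cyp11a1 (1.29 and -1.75), well above background on 3 arrays, and Csf2 (0.24 and -1.27), on 2 arrays. Neither was called. Both had their highest mean in tumour-bearing control samples, so their part in the medians adds no support. Besides Il4, Ccr4, a homing receptor of Th2 and regulatory T cells, rose by 1.08 ± 0.18 (limma adjusted p = 0.0157) and fell by 1.12 (adjusted p = 0.0277), and Ccr8 rose by 0.88 ± 0.17. Around the Th2 cytokine locus, 1 of 8 genes (Il4) rose with the tumour and 2 (Il4 and Kif3a) fell with anti-IL-6R (medians 0.18 and -0.41, with Csf2 counted here too). Rad50, which lies between Il5 and Il13, differed by 0.12 ± 0.099 and -0.13 ± 0.099. No gene of these 6 lists passed by limma in the remaining 3 comparisons, where 0.0279% (antibody, tumour-free), 0.274% (tumour, anti-IL-6R) and 0.0325% (difference between effects) of genes did.

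**Figure D3:**
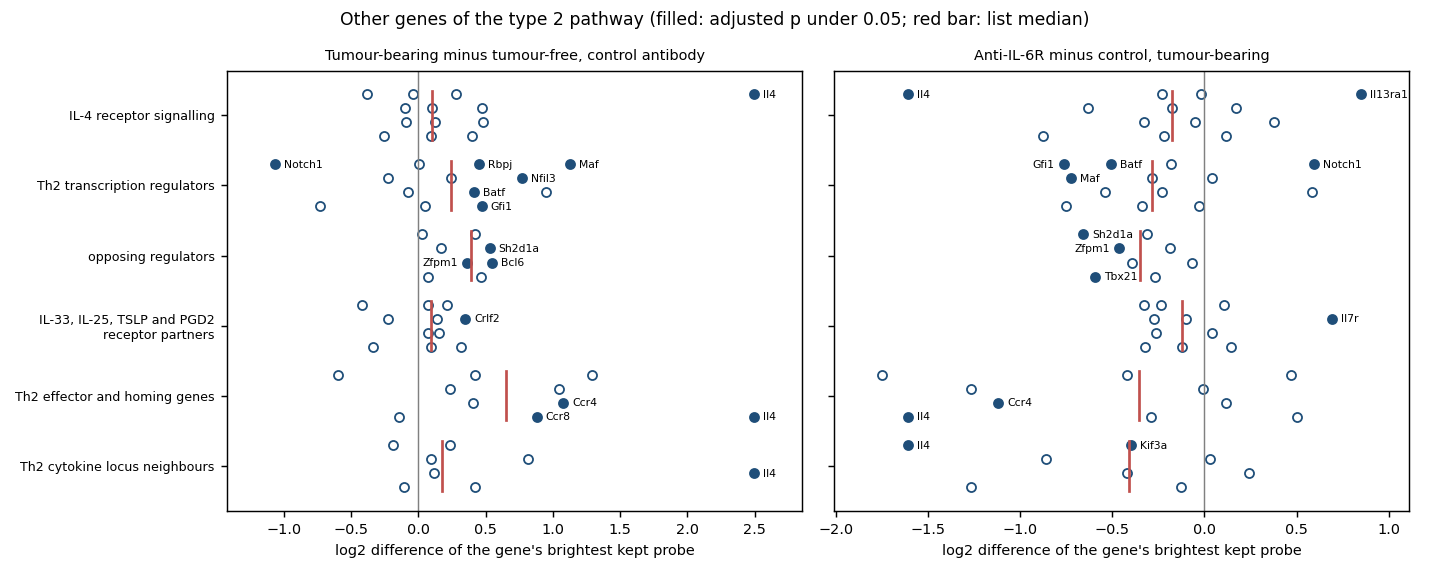
Points are log2 differences of each gene's brightest detected probe in 6 lists, for the tumour effect with control antibody (left) and the antibody effect in tumour-bearing mice (right), with the list median as a red bar. Named filled points passed an adjusted p of 0.05, and Il4, counted in 3 lists, has the largest called difference in both panels (2.50 and -1.61).

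Markers of other cells moved in the same comparisons, where 5.99% of all genes passed for the tumour with control antibody and 5.14% for anti-IL-6R in tumour-bearing mice. The T cell list was detected in full on every array (10 of 10 genes, summed scaled signal 749 to 949), with Cd3 and Cd4 among them. Of its genes 1 rose with the tumour in control-antibody mice, Cd5 at 0.39 ± 0.084 (adjusted p = 0.0402), and the list median was 0.17. With anti-IL-6R in tumour-bearing mice the list median was -0.24, beside -0.05 over all genes, with Cd3d at -0.39 and Cd5 at -0.33, and the adjusted p by limma ran from 0.0601 (Cd5) to 0.525 (Lat). Of 8 regulatory T cell markers, 6 rose with the tumour in control-antibody mice and 1 fell with anti-IL-6R, and their summed signal was 34.9 to 35.6 in tumour-free control, 47.9 to 51.3 in tumour-bearing control, 36.7 to 40.4 in tumour-free anti-IL-6R and 38.5 to 42.2 in tumour-bearing anti-IL-6R samples. Of 5 measured ILC2 markers 3 rose and then 2 fell, with sums of 8.69 to 8.93, 14.7 to 15.6, 9.05 to 9.18 and 10.6 to 10.9 in the same order of groups. The genes that rose were Il9r, Klrg1 and Rora, while Kit (-0.22) and Nmur1 (-0.17) were lower with the tumour and not called. The list medians were 0.79 and -0.15. Of these 5, 1 (Klrg1) also rose with the tumour under anti-IL-6R (0.77 ± 0.11, adjusted p = 0.0495). Arg1 was not well above background on any array and Areg on 1.

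Of 11 measured basophil and mast cell markers 1 rose with the tumour and 1 fell with anti-IL-6R, with sums of 5.88 to 6.27, 4.61 to 4.87, 4.51 to 7.71 and 7.25 to 10.3. Both calls were Prss34, which passed the detection filter only through the tumour-bearing control group, where it is high, and adds no support. With the tumour 4 of the 11 differences were above 0, and the list medians were -0.09 and 0.36. Ms4a2, the beta chain of the IgE receptor, was not well above background on any array. Of 7 measured eosinophil markers 1 rose and none fell, with sums of 8.82 to 9.28, 4.88 to 8.72, 8.77 to 11.5 and 9.56 to 10.7, and Epx, the eosinophil peroxidase, was above background on none. The call was Prg2, which also passed the filter only through the tumour-bearing control group. With the tumour 2 of the 7 differences were above 0, and the list medians were -0.46 and 0.47. Of 10 neutrophil markers 6 rose with the tumour and 6 fell with anti-IL-6R, with sums of 34.5 to 54.9, 123 to 130, 38.8 to 155 and 36.3 to 54.6. For the difference between antibody effects, 4 of the 10 (Ltf, Camp, Ngp and Mpo) were called lower, among 7 genes called in all. In that comparison no member passed. Camp, detected on all 8 arrays, differed by -4.42 ± 0.33. Ngp was not well above background on replicates 1, 5, 7 and 8, Mpo on 5 and 6, and Ltf on 1, so their sizes are not given. Ngp passed the detection filter only through the tumour-bearing control group, where it is high, and adds no support. Of 8 erythroid markers 7 rose and 5 fell, with sums of 51.7 to 51.8, 71.1 to 94.0, 57.0 to 57.7 and 54.4 to 61.6. Of 9 B cell markers 5 fell with the tumour and 1 rose with anti-IL-6R, with sums of 41.9 to 55.9, 23.4 to 33.1, 45.8 to 46.2 and 43.6 to 47.0. None of 7 macrophage markers passed for the tumour and 1 rose with anti-IL-6R, and neither CD8 T cell marker passed in either comparison. The part of these other cells in the member results was not tested.

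**Figure D4:**
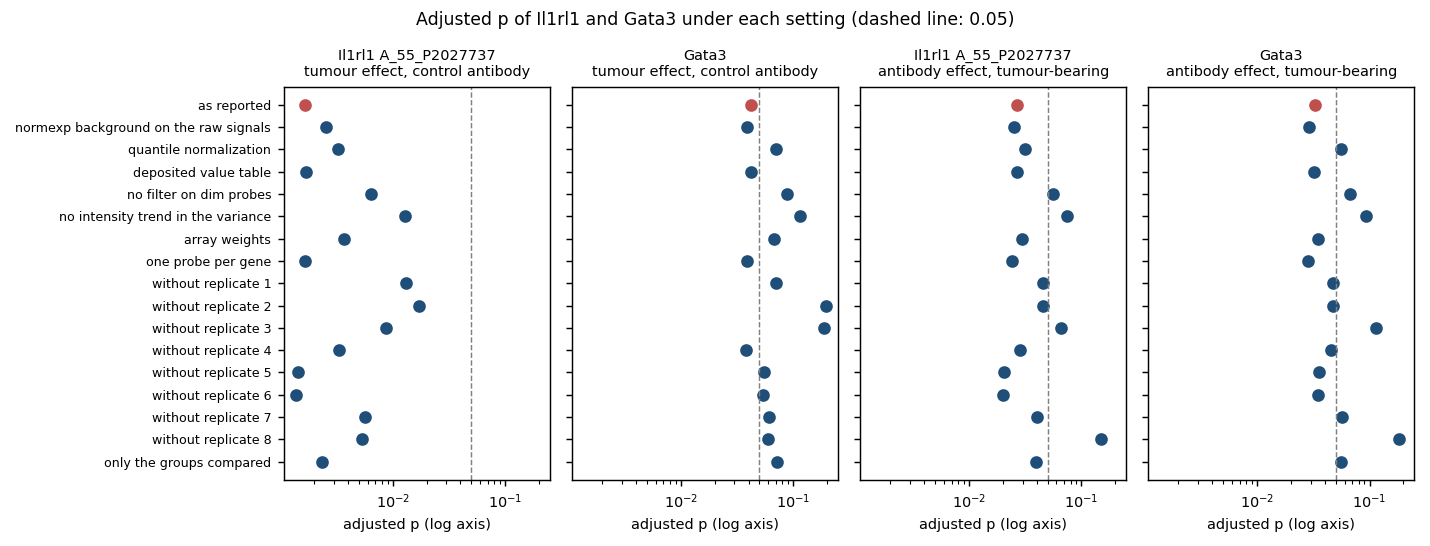
Adjusted p (log axis) of the 4 leading calls under the reported setting (red) and each alternative (blue), with 0.05 dashed. Il1rl1 A_55_P2027737 stayed under 0.05 in every setting for the tumour effect, while Gata3 crossed the line in most settings for the tumour effect and in several for the antibody effect.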

How the data were processed

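The authors' deposited scanner files hold intensity values for 1 Agilent array per sample, read with Feature Extraction 10.10.1.1 from Agilent, as the submitters' processing notes give. By the file headers, probe positions are on build mm9 and processed signals are background-subtracted, with surrogate values for spots near background. The authors' deposited value table holds log2 values, which matched the recomputed ones up to an offset per array (spread at most 0.00029); it served as an alternative. Here, outlier spots were dropped (60 to 95 per array), spots of a probe averaged, and log2 signals taken minus the array's 75th percentile. Probes well above background on each of the 2 arrays of some group were kept (32039 of 56587). limma 3.58.1 (R 4.3.3) fitted 4 group means over all 8 arrays with an intensity trend (residual df 4), checked on simulated data, and p-values were Benjamini-Hochberg adjusted over all kept probes. The number of arrays limits the precision. Members and lists were chosen with earlier results of these data known. All member probes are named. From each list, up to 4 genes per comparison with the smallest adjusted p are named, besides Il4, Stat6, Maf, Tbx21, Il2rg, Il1rap, Il17ra, Rad50 and Ccr4. Accessions matched the RefSeq table for 32986 probes, a symbol or synonym for 10743, and 12858 stayed as the file names them. Alternatives were normexp (offset 50), quantile normalization, the deposited table, no filter, no trend, array weights, 1 probe per gene, only the groups compared, and leaving out each array.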

Additional observations from a re-analysis of the deposited data

How the results depend on the processing

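Il1rl1 A_55_P2027737 kept its tumour call with control antibody in all 8 alternatives (1.29 to 1.42) and in all 8 omissions of an array. Its antibody call in tumour-bearing mice was lost with no filter (adjusted p = 0.0562) and no trend (0.0751) and kept in the other 6. Gata3 kept its tumour call in 3 of 8 alternatives (0.32 to 0.40, adjusted p 0.0384 to 0.115) and its antibody call in 4 of 8 (-0.48 to -0.35, adjusted p 0.0283 to 0.0932). The soluble-form probe of Il1rl1 ranged from 0.59 to 2.54 for the tumour (adjusted p 0.0163 to 0.0792) and was called lower with anti-IL-6R under normexp (-0.54, adjusted p = 0.0391). Ptgdr2 was called lower with anti-IL-6R under quantile normalization (-1.15, adjusted p = 0.0448), and under normexp its tumour and antibody differences were 0.40 and -0.45, against 0.85 and -0.98. The cause was not tested.

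Member probes called for the tumour with control antibody numbered 1 with no filter and 1 with array weights, and 1 to 3 without single arrays; for the antibody in tumour-bearing mice, 0 with no filter, 0 with no trend, 1 with only the groups compared, and 0 to 3 without single arrays. Over all probes, the tumour count with control antibody (1681) was 674 with no filter, 722 with no trend, 901 with array weights and 427 to 1787 without single arrays. The antibody count in tumour-bearing mice (1369) was 15 with no filter, 56 with no trend, 908 with only the groups compared and 24 to 1766 without single arrays. The antibody count in tumour-free mice (10) was 21 under normexp, 4 with array weights, 4 with 1 probe per gene, 19 with only the groups compared and 8 to 52 without single arrays. The tumour count with anti-IL-6R (67) was 23 with no filter, 21 with no trend, 11 with only the groups compared and 13 to 223 without single arrays. The count for the difference between antibody effects (8, 25% of them higher) was 13 under normexp, 5 under quantile normalization (0% higher), 0 with no filter, 20 with no trend and 4 to 364 without single arrays. The median of all probes moved by under 0.1 between scalings.

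Signs turned for differences that passed in neither setting. In tumour-bearing mice, the antibody difference of Il4ra A_51_P464478 was 0.017 under quantile normalization. In tumour-free mice, that of Gata3 was -0.027 under normexp, -0.057 under quantile normalization and -0.00050 in the deposited table, Ptgdr2 0.016 under normexp, and, under quantile normalization, Il4ra A_55_P1966189 0.033 and Il17rb A_55_P2124498 0.026. For the tumour with anti-IL-6R, the soluble-form probe of Il1rl1 was -0.032 and Ptgdr2 -0.062 under normexp, Il4ra A_55_P1966189 -0.0020 under normexp and -0.0036 under quantile normalization, and Gata3 0.019 under quantile normalization. For the difference between antibody effects, Il13 was -0.082 under normexp and -0.083 under quantile normalization.

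Without single arrays, signs also turned as follows. For the tumour with control antibody, Il4ra ranged from -0.077 to 0.028 on A_51_P464478 and from -0.0046 to 0.15 on A_55_P1966189, and Il17rb A_55_P2124498 from -0.22 to 0.73. For the antibody in tumour-bearing mice, Il13 ranged from -0.31 to 0.77 and Il4ra A_55_P1966189 from -0.11 to 0.026; in tumour-free mice, Il4ra A_55_P1966189 from -0.12 to 0.11, Il17rb A_55_P2124498 from -0.48 to 0.47 and Gata3 from -0.064 to 0.065. For the tumour with anti-IL-6R, the soluble-form probe of Il1rl1 ranged from -0.30 to 0.71 and Il4ra A_55_P1966189 from -0.081 to 0.16. For the difference between effects, Il13 ranged from -0.45 to 0.62 and Il4ra A_55_P1966189 from -0.15 to 0.082.

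No paired analysis was possible because the labels do not say which arrays of different groups came from the same experiment. An experiment effect, if present, was not fitted. A slide or scan block was not run since there was 1 of each. The lowest signal well above background was 24.2 to 36.3, which limits what can be said of Il5, Il13, Ptgdr2 and the soluble-form probe of Il1rl1. Where an omission left 1 array in a group, that array was assumed to vary like the other groups.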
